A study of Bos taurus with 6 samples.

Results

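Wnt ligands are the secreted proteins that open Wnt signaling, and 10 of their genes were followed here in bovine embryonic stem cells (WNT3, WNT3A, WNT4, WNT5A, WNT5B, WNT6, WNT7A, WNT7B, WNT8B and WNT11). They were matched by symbol in the deposited TPM table and by Entrez identifier among the 19163 genes of the raw count table, and all 10 were found in both. The cells were F7, a single line of embryonic stem cells from in vitro fertilized Holstein Friesian embryos, at 15 passages according to the design text. MC-F7 was F7 grown on C57 mouse embryonic fibroblasts (MEFs) arrested with mitomycin C (labelled 1M), and MT-F7 was F7 grown on MEFs fixed with methanol ("on MC feeders" and "on MT feeders" below). Each group had 3 libraries. The study's statistics section speaks of technical replicates without naming the RNA-seq libraries, and no source used here says that these came from separate cultures, so the p values may measure technical spread only. Cells of both groups were kept in a medium with fibroblast growth factor and IWR1, an inhibitor of the canonical Wnt pathway. They were held on gelatin to remove feeder cells before RNA was taken. The study reports a higher rate of alignment to the bovine genome in MT-F7 than in MC-F7. It proposes that fixed feeders left less feeder contamination, so MC-F7 may hold more mouse reads. The medium was renewed every day in MC-F7 and every other day in MT-F7, so the feeder and the medium interval cannot be told apart in this comparison.

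Wnt proteins are lipid-modified in the endoplasmic reticulum by PORCN and carried to the cell surface by WLS. They bind Frizzled receptors. With the co-receptors LRP5 or LRP6 they stabilize beta-catenin, which acts with TCF and LEF factors on target genes, and this is the canonical branch. Other ligands, with WNT5A and WNT11 as the best known, act mainly through ROR and RYK receptors and the planar cell polarity machinery. In the early mammalian embryo Wnt signals are known for the induction of the primitive streak and for patterning of the body axis, and in embryonic stem cell cultures the canonical branch influences the balance between self-renewal and differentiation.

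The 6 libraries held 21958386 to 24933430 counts on genes. A gene was taken as detected in a library above a floor of 3 counts. In counts per 1000000 (CPM) this floor was 0.12 to 0.137. This floor and the intervals of count ratios below cover counting error only. Levels are CPM after TMM normalization, as mean ± SD with n = 3 libraries. Log2 fold changes above 0 stand for a higher level in MT-F7. The label of pluripotent cells was checked on POU5F1 (1195 ± 329 CPM in MC-F7 and 522 ± 35.6 CPM in MT-F7) and NANOG (43.5 ± 9.03 and 10.7 ± 1.23 CPM), which were present in both groups, and SOX2 was not analysed here. Genes of the mitochondrial genome took 16.3% to 28.3% of the counts, and most of all in replicate 3 of either group.

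Of the 10 ligand genes, 3 were above the floor in all 6 libraries (WNT5A, WNT5B and WNT7B), and these were also the 3 that had enough counts for the test. They gave 91.7% of all counts on the 10 genes in MC-F7 and 98.8% in MT-F7. WNT3 was at or under the floor in every library. WNT3A, WNT6 and WNT7A were above the floor in at least 1 MC-F7 library and in 0 MT-F7 libraries. WNT4, WNT8B and WNT11 were above it in part of the libraries of each group. The plot of counts by library shows the gap between the 3 measured ligands and the remaining 7, none of which exceeded 9 counts in any library.

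**Figure D1:**
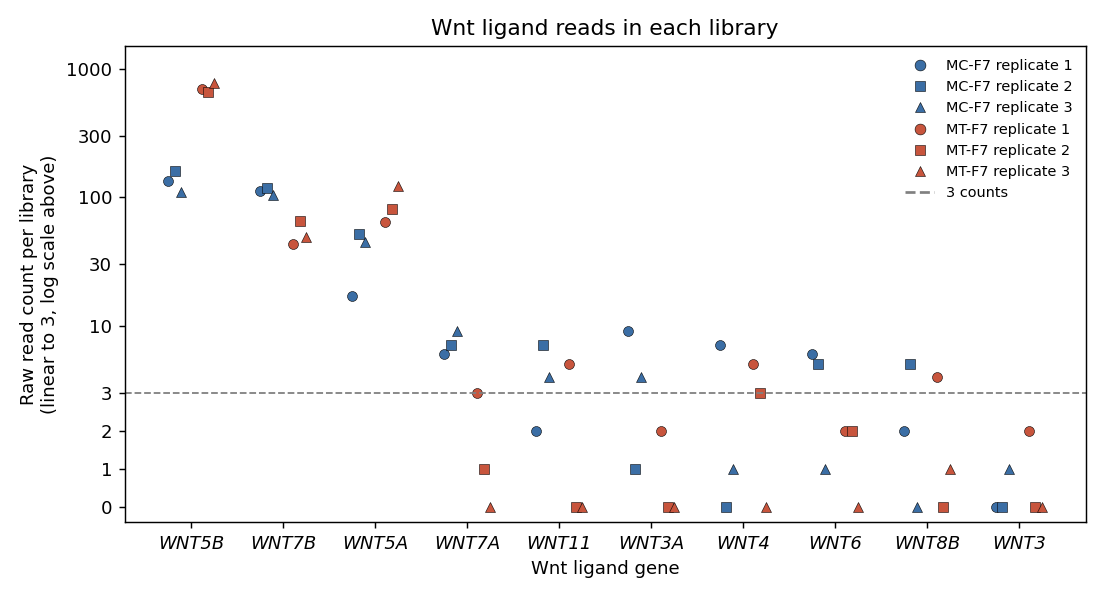
Raw read counts (vertical axis, linear up to 3 counts and logarithmic above) of the 10 Wnt ligand genes (horizontal axis) in each MC-F7 library (blue) and MT-F7 library (red), with 1 symbol shape per replicate number and a dashed line at 3 counts. WNT5B sits between 109 and 159 counts in MC-F7 and between 654 and 770 in MT-F7, and 7 genes lie at or under 9 counts in all libraries.

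Among the ligand genes WNT5B rose and WNT7B fell in MT-F7, 1 in each direction, and WNT5A did not pass. The threshold was 0.05 for the adjusted p of edgeR's quasi-likelihood test over 13001 genes. Over all tested genes 23.2% passed, 11.9% higher and 11.3% lower in MT-F7. In RNA from whole cultures, a change in the share of cells that transcribe a gene and a change in RNA per cell cannot be told apart. The median log2 fold change of the 3 tested ligand genes was 1.12, against -0.00 over all tested genes, and a median of 3 genes carries little information. The groups did not overlap in any of the 3 tested ligand genes, and this was true of 40.0% of all tested genes (19.9% higher and 20% lower). Under the rule of an absolute log2 fold change over 1.5 and an unadjusted p under 0.05, WNT5B alone was called, where 3.49% of all tested genes were called higher and 3.09% lower. In the deposited TPM values tested with limma on log2(TPM + 1), the split of all called genes was 1547 higher and 820 lower, against 1553 higher and 1463 lower in the counts. The deposited values of each ligand gene are proportional to its counts and so carry no scaling for depth, and the MT-F7 libraries were deeper. With the values rescaled to a common sum, limma called 1421 higher and 960 lower. The part of depth in this split was not tested.

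WNT5B (Entrez gene 508008), a ligand known for beta-catenin-independent signaling in cartilage and in cell movements, had the most counts of the 10 genes in both groups. Its counts were 134, 159 and 109 in the MC-F7 libraries and 699, 654 and 770 in the MT-F7 libraries. The lowest MT-F7 library was far above the highest MC-F7 library, and the replicates of each group lay close together. Its level was 5.87 ± 0.748 CPM in MC-F7 and rose to 28.6 ± 3.77 CPM, which on the log2 scale is a change of 2.28 (standard error 0.185, adjusted p = 4e-06 by edgeR's quasi-likelihood test, 95% interval 1.88 to 2.68). In the RefSeq annotation of the ARS-UCD2.0 assembly WNT5B overlaps FBXL14, a ubiquitin ligase subunit gene. FBXL14 was at 4.57 ± 1.40 and 7.89 ± 0.895 CPM, a log2 difference of 0.78 (adjusted p = 0.034 by edgeR, and 0.085 to 0.13 in 4 of the 6 fits without 1 library). In the same annotation WNT5A overlaps LOC104975559, WNT11 LOC132342346, WNT10A LOC112443120 and WNT2B ST7L, and the LOC genes were not found in the count table. ST7L was at 5.07 ± 0.460 and 8.17 ± 0.589 CPM (adjusted p = 0.024 by edgeR, lost in 5 of the 6 fits without 1 library). The sources used here do not say that reads were counted by strand, and how the counting divided reads of shared stretches was not tested.

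WNT5A (Entrez gene 530005), the close relative of WNT5B and a ligand that directs elongation of the body axis, was counted 17, 52 and 45 times on MC feeders and 64, 81 and 123 times on MT feeders. All MT-F7 libraries were above all MC-F7 libraries, but both groups were widely spread, with replicate 1 low in MC-F7 and replicate 3 high in MT-F7. Its level was 1.67 ± 0.796 CPM in MC-F7 and 3.63 ± 1.41 CPM in MT-F7. The difference was 1.12 on the log2 scale (standard error 0.402, adjusted p = 0.063 by edgeR's quasi-likelihood test, unadjusted p = 0.016, where 35.8% of all tested genes were under 0.05). The 95% interval of this difference ran from 0.24 to 1.99 on the log2 scale, and so held differences both small and near that of WNT5B. Over 18 alternative settings the log2 fold change stayed above 0 and the adjusted p was 0.0058 to 0.23, with 4 settings under 0.05. It passed in 0 of the 6 fits made without 1 library, where the log2 fold change was 0.77 without MC-F7 replicate 1 and 0.75 without MT-F7 replicate 3.

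WNT7B (Entrez gene 100337066), an epithelial ligand that acts through beta-catenin in lung, kidney and brain vessel development, went the other way. The MC-F7 libraries held 112, 118 and 103 WNT7B reads and the MT-F7 libraries 43, 65 and 49. The MC-F7 libraries were nearly alike, and each of them was above every MT-F7 library. Its level was 4.89 ± 0.0689 CPM in MC-F7 and 2.10 ± 0.399 CPM in MT-F7, a log2 difference of -1.21 (standard error 0.255, adjusted p = 0.0043 by edgeR's quasi-likelihood test, 95% interval -1.77 to -0.66). WNT5B and WNT7B both passed under each of the 18 alternative settings in which they were tested, as the plot of settings shows, and their direction did not change.

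**Figure D2:**
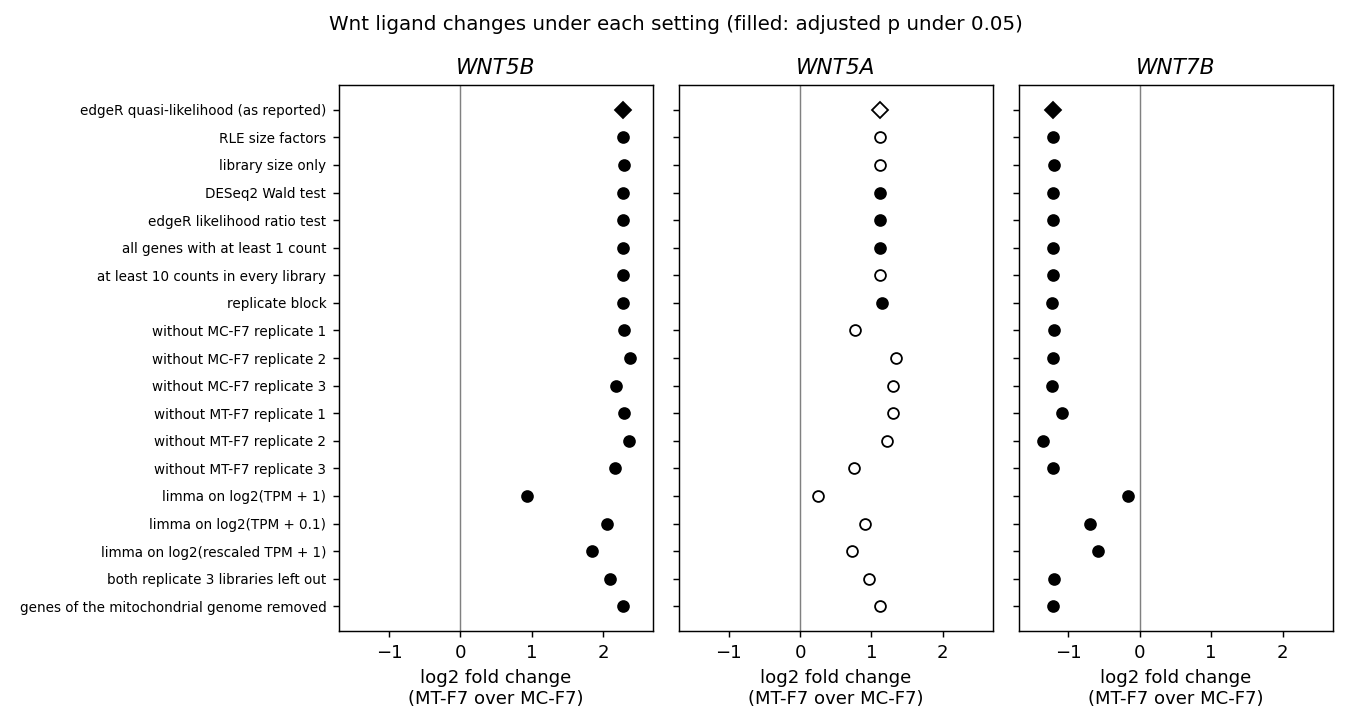
Log2 fold change of WNT5B, WNT5A and WNT7B in MT-F7 over MC-F7 (horizontal axes) under the reported test (diamond) and 18 alternatives (circles, 1 per line of the vertical axis), filled where the adjusted p was under 0.05. WNT5B stays between 0.94 and 2.37 and WNT7B between -1.36 and -0.16, all filled, while WNT5A is filled in 4 of 18 alternatives.

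The ligand genes best known for the canonical branch in the primitive streak and tail bud were barely detected. WNT3 (540753), which the mouse embryo needs to form a primitive streak, was counted 0, 0 and 1 times on MC feeders and 2, 0 and 0 times on MT feeders, and at this depth a difference could not be detected. WNT3A (522467), a ligand of the somites and tail bud, was counted 9, 1 and 4 times on MC feeders and 2, 0 and 0 times on MT feeders. The summed counts of WNT3A, 14 against 2, gave a ratio of MT-F7 to MC-F7 of 0.131 after normalization for depth (exact 95% interval 0.014 to 0.568). The MC-F7 spread of WNT3A was wide, and MC-F7 replicate 2 was lower than MT-F7 replicate 1. In a test of every gene with a count, WNT3A had an adjusted p of 0.19 in the quasi-likelihood test and was not called.

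WNT7A (533782), the close relative of WNT7B that sets the dorsal side of the limb, was the untested member whose groups did not overlap. It was counted 6, 7 and 9 times on MC feeders and 3, 1 and 0 times on MT feeders. The ratio of its summed counts, 4 against 22, was 0.166 (exact 95% interval 0.042 to 0.489). In a test of every gene with a count, WNT7A had an unadjusted p of 0.035 and an adjusted p of 0.13 in the quasi-likelihood test. It passed with limma on the deposited TPM values (adjusted p = 0.029 to 0.036 over 3 scales, all made from the same counts). Of these scales only the rescaled TPM allowed for depth (adjusted p = 0.029 by limma). Limma was the only way of testing in which an untested member was called. Both WNT7 genes were thus lower in every MT-F7 library than in any MC-F7 library. This held for 20% of all tested genes, a set with WNT7B but without WNT7A. No such share was computed for genes too low to be tested. WNT7A, 1 of the 7 untested members, was too low for a call from the counts.

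The other untested members had wide counting intervals. WNT6 (505075), a ligand of surface epithelia, was counted 6, 5 and 1 times on MC feeders and 2, 2 and 0 times on MT feeders, and the ratio of its sums was 0.305 (exact 95% interval 0.072 to 1.01). WNT11 (613288), a ligand of convergent extension and kidney branching, was counted 2, 7 and 4 times on MC feeders and 5, 0 and 0 times on MT feeders, with a ratio of 0.351 (0.098 to 1.05). Both intervals reached 1, and the groups overlapped. WNT4 (789600), known for kidney and ovary development, was counted 7, 0 and 1 times on MC feeders and 5, 3 and 0 times on MT feeders, with a ratio of 0.914 (0.299 to 2.79). WNT8B (538720), a gene of the embryonic forebrain, was counted 2, 5 and 0 times on MC feeders and 4, 0 and 1 times on MT feeders, with a ratio of 0.653 (0.163 to 2.39). For these 2 genes the spread within a group was wider than the difference between the groups. The 7 untested members together had 77 counts over the MC-F7 libraries and 30 over the MT-F7 libraries. Of them 5 had fewer counts in MT-F7, 1 had the same and 1 had more, and only the WNT7A groups did not overlap. The share of other genes at such low counts that had fewer in MT-F7 was not computed, so no general fall can be read from these sums.

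The mammalian family has 9 further ligand genes in the count table. WNT2 and WNT9B had 0 counts in all 6 libraries. WNT2B and WNT16 had enough counts to be tested, and neither passed. WNT2B was counted 28, 13 and 20 times on MC feeders and 41, 32 and 21 times on MT feeders (log2 fold change 0.48, 95% interval -0.46 to 1.41, adjusted p = 0.47 by edgeR). WNT16 was counted 31, 14 and 1 times on MC feeders and 50, 37 and 13 times on MT feeders, with replicate 3 lowest in both groups (log2 fold change 0.98, 95% interval -0.54 to 2.50, adjusted p = 0.35 by edgeR). Their groups overlapped. WNT1 and WNT10B, which lie next to each other on chromosome 5 in ARS-UCD2.0, had more counts in MT-F7. WNT1 had 3, 5 and 0 against 11, 20 and 3, and WNT10B had 6, 4 and 0 against 14, 23 and 9, of which only the WNT10B groups did not overlap. In a test of every gene with a count, their adjusted p values were 0.18 and 0.097 in the quasi-likelihood test, so neither was called. WNT8A, WNT9A and WNT10A had at most 9 counts in a library, and the ratio of summed WNT10A counts was 0.392 (exact 95% interval 0.158 to 0.892). The WNT10A groups overlapped, and its adjusted p in the quasi-likelihood test of every gene with a count was 0.36, so it was not called.

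Levels of different ligand genes were compared per length, as deposited TPM rescaled to 1000000 in each library (rescaled TPM). In MC-F7 the order began with WNT5B at 1.70 ± 0.282 and WNT7B at 1.60 ± 0.0736, which did not differ beyond their spread, followed by WNT5A at 1.07 ± 0.517. WNT5A lay below WNT7B in every MC-F7 library. In MT-F7 WNT5B stood first at 8.72 ± 0.737 and WNT5A second at 2.42 ± 0.828, and neither overlapped the next gene. WNT7B at 0.727 ± 0.157 came after WNT2B, within the spread of WNT2B (0.831 ± 0.265) and WNT16 (0.691 ± 0.389). The order of WNT5A and WNT7B was therefore exchanged between the groups. Below WNT7A in MC-F7 and below WNT5A in MT-F7, each gene overlapped its next neighbor in the order until the undetected genes. Even the highest ligand was a moderate transcript, since WNT5B lay above 52.1% of the 21357 genes of the TPM table in MC-F7 and above 69.5% in MT-F7.

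The summed level of all 19 ligand genes was 5.75 to 7.24 rescaled TPM in MC-F7 and 14.7 to 15.0 in MT-F7. Most of this difference was WNT5B, since without it the sum was 4.33 to 5.27 in MC-F7 and 5.49 to 6.65 in MT-F7. WNT5B made up 24.4% to 27.4% of the sum in the MC-F7 libraries and 54.7% to 63.4% in the MT-F7 libraries. The share of WNT7B was 23.0% to 26.4% in MC-F7 and 4.06% to 6.14% in MT-F7. The share of WNT5A, 6.82% to 22.5% in MC-F7 and 11.8% to 22.3% in MT-F7, overlapped between the groups. The ratio of WNT5B to WNT7B was 0.937 to 1.19 in MC-F7 and 8.91 to 14.4 in MT-F7. These shares and ratios are descriptions of the 6 libraries and were not tested.

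**Figure D3:**
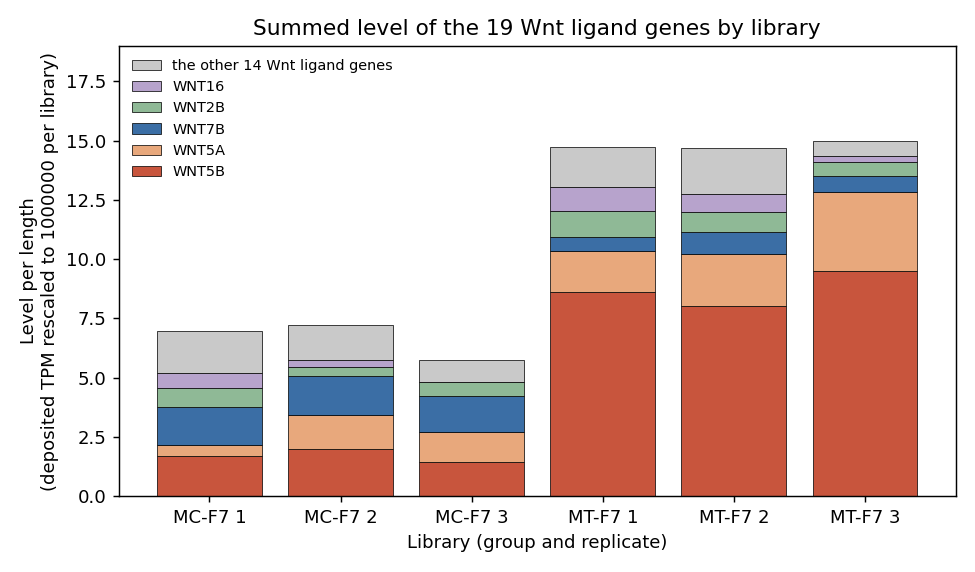
Level per length (vertical axis, deposited TPM rescaled to 1000000 per library) of the 19 Wnt ligand genes, stacked, in each of the 6 libraries (horizontal axis), with the 5 highest genes in color and the other 14 together in grey. The MT-F7 bars reach 14.7 to 15.0 and the MC-F7 bars 5.75 to 7.24, and the WNT5B segment makes up 54.7% to 63.4% of the MT-F7 bars.

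Genes for the release and reception of Wnt proteins were described by 8 lists of 77 genes, of which 69 were tested. Of these 20 (29.0%) passed as higher and 6 (8.7%) as lower, beside 11.9% and 11.3% of all tested genes. The lists were chosen with earlier results of these data known, and they pool receptors with secreted antagonists. These shares are therefore descriptions and not a test of the pathway. Among the 3 genes of lipidation and secretion, WLS, the carrier of Wnt proteins to the cell surface, rose from 1.41 ± 0.377 to 8.34 ± 0.494 CPM, by 2.56 on the log2 scale (standard error 0.258, adjusted p = 2e-05 by edgeR). The MC-F7 libraries held 32, 43 and 22 WLS reads and the MT-F7 libraries 222, 216 and 185, so the groups were far apart. PORCN, the acyltransferase of all Wnt ligands, had 36.2 ± 4.81 and 36.5 ± 8.03 CPM (adjusted p = 0.96). NOTUM, a secreted enzyme that removes the lipid, fell from 1.26 ± 0.462 to 0.392 ± 0.157 CPM (log2 difference -1.67, adjusted p = 0.025). The NOTUM call was lost without MC-F7 replicate 2 or 3 or MT-F7 replicate 1 or 2 (adjusted p = 0.06 to 0.104).

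Of 9 tested Frizzled receptors 3 rose and 2 fell, with a median log2 fold change of -0.00, and the largest were FZD5 (1.70), FZD8 (1.54) and FZD6 (-1.22). Of the 6 LRP and kinase co-receptors 0 passed in edgeR's test, 0 were under 0.05 unadjusted and 0 were called by DESeq2, while 1 passed as higher with the replicate number as a block. Their log2 fold changes ran from -0.17 to 0.54. These include ROR1, ROR2 and RYK, receptors of WNT5A. ROR1 had the largest log2 fold change of the list, with 8.18 ± 3.48 CPM in MC-F7 and 11.9 ± 3.12 CPM in MT-F7 (adjusted p = 0.23 by edgeR). ROR2 and RYK had 10.5 ± 0.817 and 36.9 ± 1.53 CPM in MC-F7 and 11.4 ± 1.67 and 42.0 ± 2.57 CPM in MT-F7. Of 8 tested genes of the R-spondin and receptor turnover list, 3 rose and 1 fell (median 0.87). LGR5 and LGR6, both R-spondin receptors, moved apart with log2 fold changes of 3.01 and -1.81, and RSPO3, a secreted enhancer of Wnt signals, rose by 1.56.

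Of the secreted antagonists 5 of 9 tested genes were higher and 1 was lower (SOSTDC1, lost in 4 of the 6 fits without 1 library), and DKK4 and CER1 had 0 counts. DKK1, which blocks LRP co-receptors, was counted 0, 0 and 0 times on MC feeders and 162, 267 and 132 times on MT feeders, at least 56.3-fold higher when 3 counts per library are taken as the floor. FRZB and SFRP2, decoys that bind Wnt proteins, rose with log2 fold changes of 3.50 and 2.17. The median of this list was 0.71, also with DKK1 set at its bound. In the beta-catenin core 4 of 15 genes rose and 1 fell (median 0.24), led by CTNNBIP1 (1.09), APC2 (1.04) and CSNK1A1 (-0.84). The higher count was 2 without MT-F7 replicate 1, and the lower count was 3 without MT-F7 replicate 3. Of the other genes that rose, DVL3 lost its call in 5 of the 6 fits without 1 library (adjusted p = 0.088 to 0.21 by edgeR) and DVL2 in 1.

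Of 10 target and feedback genes of beta-catenin, LEF1 and NKD2 rose and none fell (median -0.15). LEF1, a DNA-binding partner of beta-catenin, rose from 0.814 ± 0.168 to 5.66 ± 0.860 CPM (log2 difference 2.80, adjusted p = 3e-05 by edgeR). AXIN2, the feedback gene most often used as a readout of the canonical branch, had 5.42 ± 1.68 and 5.24 ± 0.793 CPM, a log2 difference of -0.05 (standard error 0.264, adjusted p = 0.92 by edgeR). Both groups were kept in IWR1, the inhibitor of this branch, and its part in the levels of these genes was not tested. Of 9 tested planar cell polarity genes, DAAM2 (1.14) and CELSR2 (0.73) rose and none fell (median -0.15). These 2 and NKD2 had adjusted p values of 0.015 to 0.041, and their calls did not hold in every fit without 1 library: NKD2 was lost in 5 of 6, DAAM2 in 4 and CELSR2 without MC-F7 replicate 2. The plot of the lists by role shows these genes beside the ligands.

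**Figure D4:**
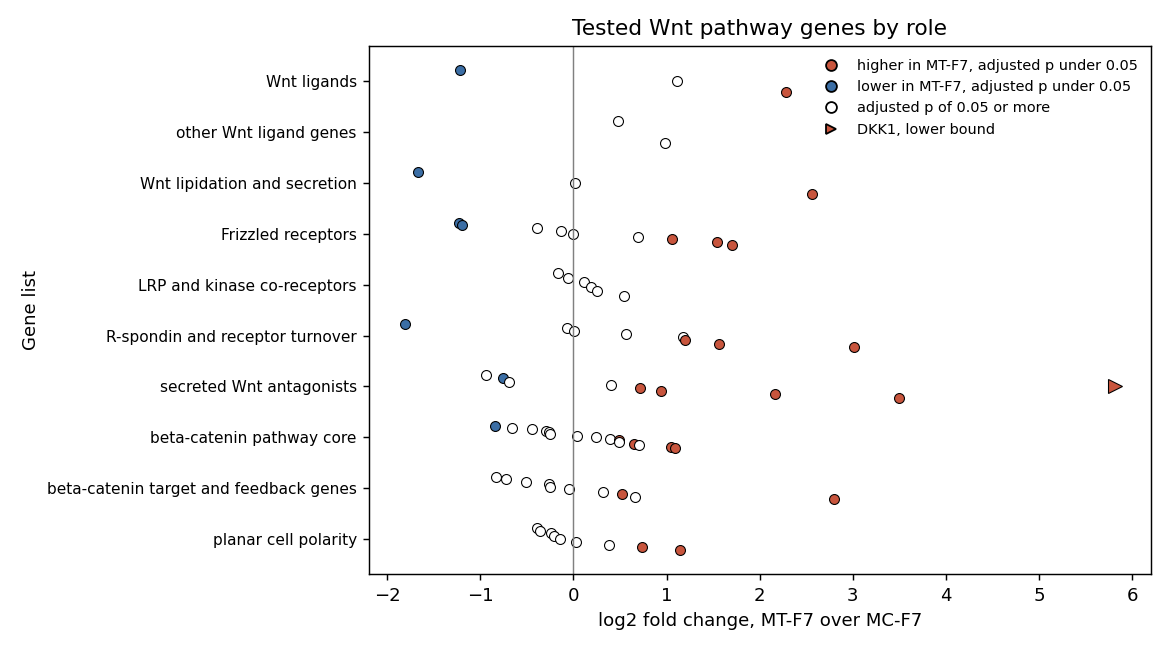
Log2 fold change in MT-F7 over MC-F7 (horizontal axis) of each tested gene in the Wnt ligand lists and 8 pathway lists (vertical axis), red or blue where it was higher or lower with an adjusted p under 0.05 and white where not. DKK1 is a triangle at its lower bound of 5.82, and LRP and kinase co-receptors have no colored point.

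Markers of other cell types also differed between the groups, in part of each list. Of all tested genes 11.9% passed as higher and 11.3% as lower. Of 14 fibroblast markers, all with reads in every library, 4 rose and 1 fell (TWIST2, with 2 counts in MT-F7 replicate 1). Their summed level was 234 to 313 CPM in MC-F7 and 362 to 412 CPM in MT-F7, and most of it was COL1A1 (205 and 268 CPM on average), which did not pass (adjusted p = 0.094 by edgeR). Among the 4 that rose, the call of POSTN was lost in 1 and that of PDGFRB in 3 of the 6 fits without 1 library. Of 5 neural markers PAX6, RAX and SIX3 rose, and the sum was 376 to 445 CPM in MC-F7 and 777 to 830 CPM in MT-F7, of which NES, which did not pass, gave 312 and 412 CPM. In the trophectoderm list KRT7, a keratin of simple epithelia, was at 63.7 CPM in MC-F7 and 6.27 CPM in MT-F7 and made up nearly all of the sum (51.9 to 78.2 and 7.43 to 8.24 CPM). GATA2 also fell, a call lost in 4 of the 6 fits without 1 library (adjusted p = 0.074 to 0.11 by edgeR), TFAP2A was at 0.877 and 0.977 CPM and did not pass, and CDX2 and HAND1 had 0 counts. In the mesoderm and endoderm list FOXA2 fell from 4.82 to 0.503 CPM. EOMES, the other gene tested there, fell from 5.49 to 3.16 CPM, a call lost without MC-F7 replicate 2, MT-F7 replicate 1 or MT-F7 replicate 2 (adjusted p = 0.052 to 0.075 by edgeR). The sum of that list was 10.7 to 12.0 CPM in MC-F7 and 4.05 to 4.46 CPM in MT-F7, and GATA4 had 0 counts. Of 7 pluripotency markers 5 fell, with the call of LIN28A lost in 3 of the 6 fits without 1 library. DPPA4 fell from 1.67 to 0.174 CPM and ZFP42 from 21.0 to 3.16 CPM, while SALL4 and PRDM14 did not pass. The sum of this list, mostly POU5F1, was 964 to 1605 CPM in MC-F7 and 594 to 655 CPM in MT-F7. The part of these markers, and of any mouse feeder reads aligned to bovine genes, in the ligand differences was not tested.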

How the data were processed

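RNA-seq libraries of 3 MC-F7 and 3 MT-F7 samples were used. The authors filtered paired-end reads, aligned them with HISAT2 2.0.5 to the Ensembl Bos taurus genome (build not given in the sources used here) and deposited raw counts per Entrez gene made by featureCounts 1.5.0-p3. The authors also deposited values they call TPM, which are proportional to the counts of each ligand gene and sum to 154763 to 164394 per library over the 21357 genes used. The authors' notes also name edgeR. Symbols came from RefSeq (ARS-UCD2.0), which matched 19074 of 19163 identifiers.

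The counts were filtered with filterByExpr (minimum count 10, minimum total 15), normalized by TMM (factors 0.971 to 1.04) and tested by edgeR 4.0.16 (glmQLFit, two-sided, group only) under R 4.3.3, with Benjamini-Hochberg adjustment over 13001 genes and a threshold of 0.05. Standard errors were the absolute log2 fold change divided by the root of F. An exact permutation test of 3 against 3 cannot go below p = 0.1. Count ratios have exact conditional (Clopper-Pearson) intervals. Alternatives used limma 3.58.1 and DESeq2 1.42.0. The fits were tested on simulated data. All ligand genes are named, and in other lists at most 3 called genes of largest change, besides genes singled out after their values were seen (PORCN, ROR1, ROR2, RYK, AXIN2, SOSTDC1, DVL2, DVL3 and markers of other cell types). Members and lists were chosen with earlier results of these data known. No sequences were printed, because none were at hand.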

Additional observations from a re-analysis of the deposited data

How the results depend on the processing

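Of the 10 ligand genes, 1 was higher and 1 lower in MT-F7, and in the 6 fits without 1 library these counts stayed at 1 to 1 and 1 to 1, while those of all genes ran from 1019 to 1592 higher and 895 to 1567 lower. The lowest pair came without MC-F7 replicate 2. The higher count became 2, with WNT5A added, in DESeq2, in edgeR's likelihood ratio test, with all genes of at least 1 count and with the replicate block. The lower count became 2, with WNT7A added, in limma on log2(TPM + 1), log2(TPM + 0.1) and log2(rescaled TPM + 1), where 820, 845 and 960 genes in all were lower. No ligand gene reached a mean of at least 1 in the deposited TPM over all 6 libraries, before rescaling, so that filter gave 0 and 0, with 948 genes higher and 451 lower. The limit of 1.5 on the log2 fold change left 0 lower ligand genes, and 454 higher and 402 lower genes in all.

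The replicate block raised the calls to 2373 higher and 2301 lower, and those of the co-receptors from 0 to 1 higher. Deviations of same-numbered libraries correlated at 0.167, 0.0708 and 0.505 across genes, and the value for replicate 3 was the highest of all pairs. MC-F7 replicate 1 correlated best with MT-F7 replicate 2 (0.368). These correlations do not settle whether the numbers mark pairs, and the fit by group only was kept. With the block WNT5A had an adjusted p of 0.0058 by edgeR's quasi-likelihood test. The rescaled TPM, the removal of both replicate 3 libraries and the removal of mitochondrial genes were chosen after seeing the data. Counts of the 8 pathway lists stayed within 1.5 times in 273 of 320 values. These include lists with 0 calls in a direction in the reported test, where 0 again was taken as within range. Equal counts need not be the same genes. Depth limits the 7 untested members, none above 9 counts.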
